A study of Boehmeria nivea with 18 samples.

Results

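In the stem bark of ramie (Boehmeria nivea), a fiber crop of the nettle family, 92 annotated genes had FPKM values in the top stem section that were at least 4 times those of the middle stem section. FPKM scales the fragments of a transcript to its length and to the depth of the library, which gives a level per length. A gene was taken as a member when its lowest value in the 3 libraries of the top section (TPS) was at least 4 times its highest value in the 3 libraries of the middle section (MPS), and its TPS mean was at least 5 FPKM. Of 20840 annotated genes listed in the 6 libraries, 99 met both limits. Of these, 7 were on a list of 17 excluded IDs, which left the 92 members. The members were thus chosen by the FPKM values that are described here, and the difference between the sections is given for them as a description, with no test. By the same limits turned around, 57 genes were higher in MPS.

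Bark was collected from cultivar Zhongzhu 1 grown on an experimental farm, with no treatment. Each sample pooled 5 plants, the age is 40 days in the labels and younger in the study's methods, and each section had 3 biological replicates. By the labels, fiber cells in MPS were thickening their secondary walls, while those in TPS, the section above it, had not begun to do so. RNA depleted of ribosomal RNA was sequenced, and the expected counts of the 6 libraries summed to 49056682 to 52971221. All results below are levels in bulk bark, where fewer cells of a type and less RNA per cell cannot be told apart. Nothing in the labels says how the replicates were separated in the field, so that the spread between them is the spread between these pools.

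The top of a growing stem is its youngest bark. There the epidermis is still laying down its cuticle, phloem fibers are still elongating, and soft tissue is exposed to insects and fungi. Plants are known to guard such tissue with proteins that bind or cut the sugars of attackers (lectins and chitinases), with enzymes that turn stored phenols or cyanogenic compounds into toxic products, and with small secreted proteins that carry lipids to the surface. Protein names were at hand for 20 of the 92 members, from a copy of the study's list of genes that differ between the sections in these same samples. A further 3 members are in that copy without a name, and 69 have ID numbers above the last one in the copy, BntWG10011758. The names are those of best matches in other species, and no role was tested in ramie.

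The members ranged widely in level. TPS means ran from 5.01 to 3169.5 FPKM with a median of 17.6 FPKM. In total, 25 members had a TPS mean under 10 FPKM, 49 had 10 to under 100 FPKM, and 18 had 100 FPKM or more. Together the 92 members summed to 6873, 9742 and 12911 FPKM in TPS replicates 1, 2 and 3, and to 137.6, 338.3 and 594.6 FPKM in MPS replicates 1, 2 and 3. They held 2.0 to 3.49% of the FPKM of all annotated genes in the TPS libraries and 0.0376 to 0.163% in the MPS libraries. The member of highest level alone made up 32.2% of the summed TPS means, and the 5 highest made up 56.7%. The rule was met by 0.475% of all annotated genes and by 1.67% of the 5933 genes with a TPS mean of at least 5 FPKM. The mirrored rule was met by 0.973% of the 5859 genes with an MPS mean of at least 5 FPKM.

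**Figure D1:**
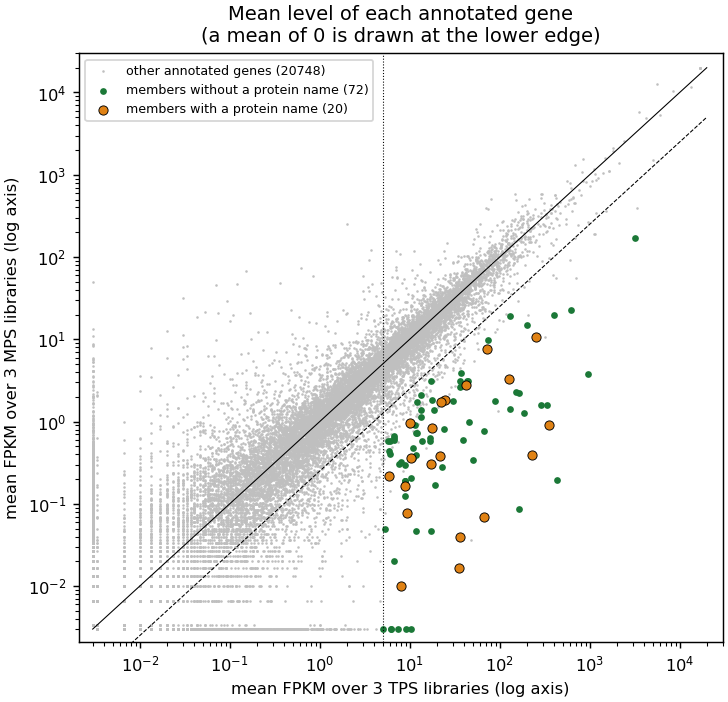
Mean FPKM of each annotated gene over the 3 MPS libraries against the mean over the 3 TPS libraries, both on log axes. The solid line marks equal means, the dashed line a TPS mean 4 times the MPS mean, and the dotted line a TPS mean of 5 FPKM. The 92 members (20 with a protein name in orange, 72 without in green) lie below the dashed line at TPS means from 5.01 to 3169.5 FPKM, and the 6 members unlisted in all MPS libraries are drawn at the lower edge.

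Few of these genes were confined to the top stem in the sense of being unlisted in MPS. The highest MPS library was under 1 FPKM in 43 members, 1 FPKM or more in 49, and 10 FPKM or more in 7. The deposited files list transcripts from 0.01 FPKM, and an unlisted value is given here as 0. In total, 68 members were above 0 in all 6 libraries. Another 11 were at 0 in 1 MPS library, 7 in 2 MPS libraries, and 6 in all 3. Over the 86 members listed in some MPS library, the lowest TPS value was a median of 8.86 times the highest MPS value. This ratio was under 5 in 18 members, at least 10 in 40 and at least 100 in 7, with a maximum of 546.2.

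**Figure D2:**
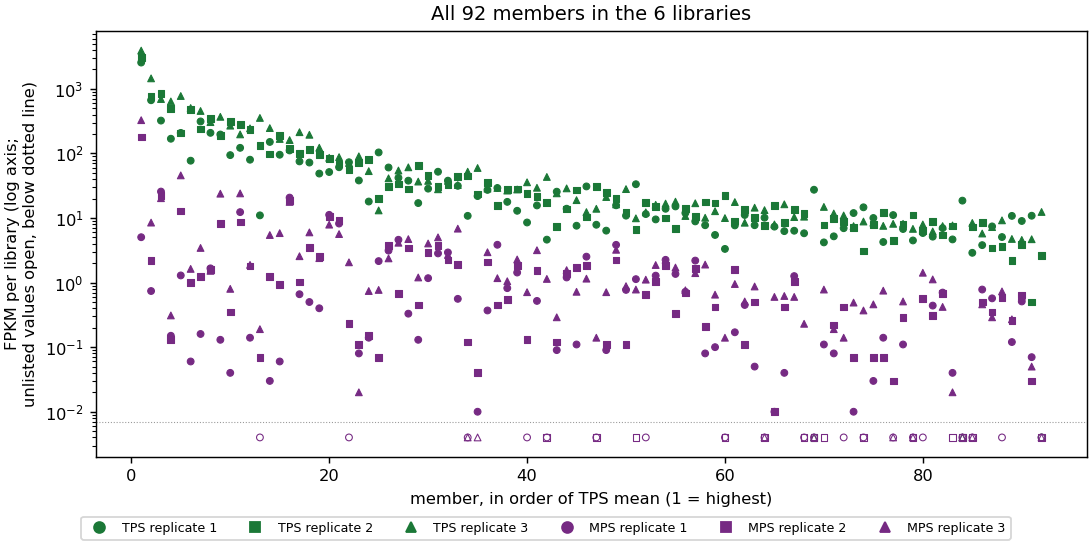
FPKM of the 92 members in each of the 3 TPS (green) and 3 MPS (purple) libraries on a log axis, with members in order of their TPS mean and symbols for the replicates. Open symbols under the dotted line are unlisted values, which occur in MPS for 24 members and in TPS for 3.

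Of the 20 named members, 6 carry names of defence proteins, as do 40 of the 773 listed genes with a name. Both counts come from the study's choice of differing genes, and their shares were not tested against each other. Polyphenol oxidase, a copper enzyme that oxidizes phenols to quinones and browns cut tissue, was the named member of highest level. BntWG10007827, which matches the enzyme of apple, was at 77.15, 481.9 and 505.07 FPKM in TPS replicates 1, 2 and 3. It was at 0.06, 1.0 and 1.63 FPKM in MPS replicates 1, 2 and 3. The TPS mean was 354.7 ± 240.7 FPKM and the MPS mean 0.897 ± 0.790 FPKM (SD over n = 3 libraries each), and both replicate 1 libraries were the lowest of their section.

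Galactose-specific lectin, which binds galactose-bearing sugar chains in mulberry, a relative of the nettles, was the name of a pair of members. BntWG10006868 was at 196.17, 188.87 and 368.86 FPKM in TPS and at 0.13, 8.23 and 23.8 FPKM in MPS, in the order of the replicates. BntWG10006854 was at 4.62, 17.19 and 43.23 FPKM in TPS, at 0 in MPS replicates 1 and 2, and at 1.14 FPKM in MPS replicate 3. For both genes, replicate 3 held the highest value of each section, and for BntWG10006854 the ratio of the lowest TPS to the highest MPS value was 4.05, close to the limit. No further gene in the copy had this name.

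Endochitinase 3, of a family that cuts the chitin of fungal walls and of insects, was also the name of a pair. BntWG10010250 was at 94.1, 315.71 and 269.14 FPKM in TPS and at 0.04, 0.35 and 0.8 FPKM in MPS. BntWG10010259 was at 6.26, 8.45 and 16.3 FPKM in TPS and at 0.04, 0.42 and 0.62 FPKM in MPS. The MPS values of the pair lay in the same range, and the TPS level of BntWG10010250 was the higher in every library.

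Mandelonitrile lyase 1, which releases hydrogen cyanide from mandelonitrile when the cyanogenic glycosides of black cherry are broken down, and BntWG10012316, a member without a name, had the widest gaps between the sections. BntWG10011741 was at 21.85, 23.47 and 59.46 FPKM in TPS and at 0.01, 0.04 and 0 FPKM in MPS. The MPS values rest on expected counts of 1.0, 2.44 and 0, so that the ratio of 546.2 between the lowest TPS and the highest MPS library is a rough one. BntWG10012316 was at 168.8, 499.53 and 638.12 FPKM in TPS and at 0.15, 0.13 and 0.31 FPKM in MPS, a ratio of 544.5. By the ratio of the section means the order of the pair turned, with 2095.6 for BntWG10011741 and 2214.3 for BntWG10012316.

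**Figure D3:**
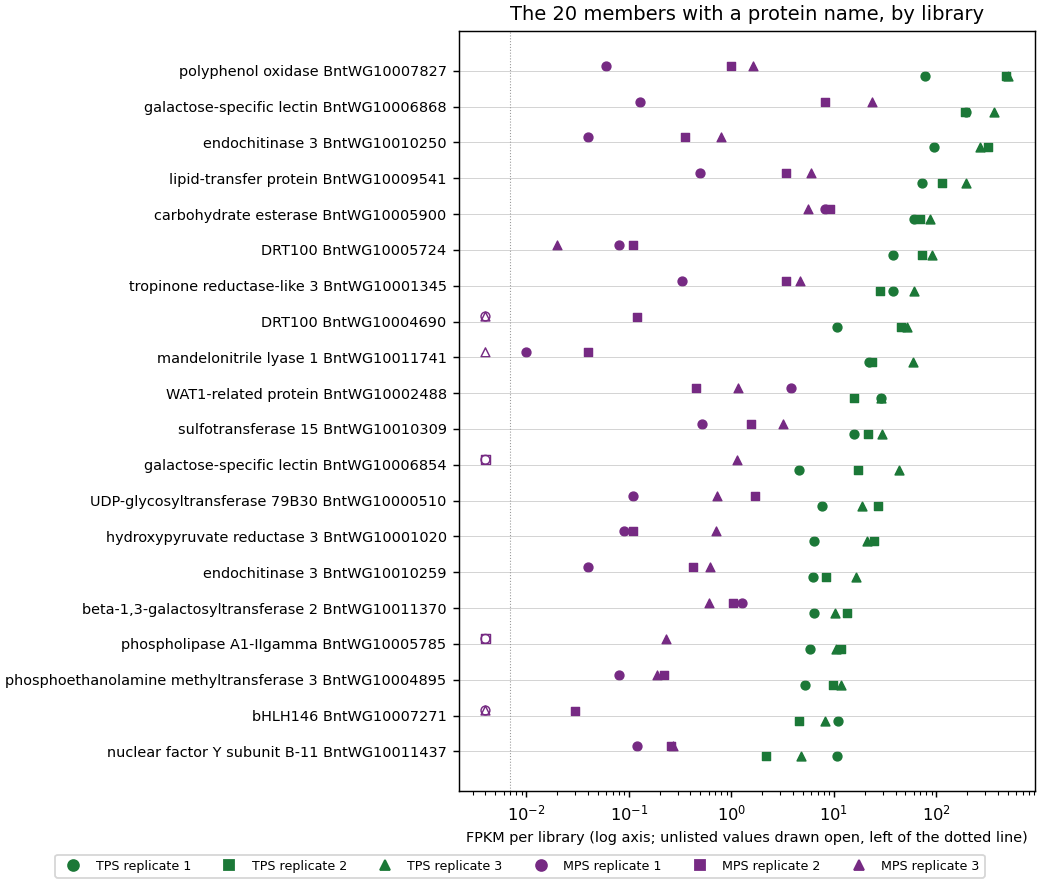
FPKM of the 20 members with a protein name in each TPS (green) and MPS (purple) library on a log axis, in order of TPS mean. Symbols mark the replicates and open symbols left of the dotted line are unlisted values. Among these 20, the gap between the sections is widest for mandelonitrile lyase 1 and narrowest for lectin BntWG10006854 and the WAT1-related protein, at 4.05 and 4.1 between the lowest TPS and the highest MPS library.

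Lipids and the plant surface were represented by a pair of members. Non-specific lipid-transfer proteins are small secreted proteins that bind lipids and are abundant in young epidermis. BntWG10009541 was at 72.2, 114.75 and 194.39 FPKM in TPS and at 0.5, 3.45 and 5.99 FPKM in MPS, and stood in the same order of replicates in both sections. Phospholipase A1-IIgamma is a lipase that frees fatty acids from glycerolipids in Arabidopsis. BntWG10005785 was at 5.8, 11.78 and 10.48 FPKM in TPS, at 0 in MPS replicates 1 and 2, and at 0.23 FPKM in MPS replicate 3.

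Enzymes of specialised metabolism and conjugation gave 3 members. Tropinone reductase-like 3 belongs to the short-chain reductases, named after enzymes of tropane alkaloid formation in coca. BntWG10001345 was at 37.83, 28.13 and 60.96 FPKM in TPS and at 0.33, 3.43 and 4.71 FPKM in MPS. UDP-glycosyltransferase 79B30 adds a sugar to flavonol glycosides in soybean. BntWG10000510 was at 7.59, 27.24 and 18.9 FPKM in TPS and at 0.11, 1.69 and 0.72 FPKM in MPS. Cytosolic sulfotransferase 15 transfers sulfate to hydroxylated jasmonates in Arabidopsis, which inactivates these hormone derivatives. BntWG10010309 was at 15.65, 21.58 and 29.4 FPKM in TPS and at 0.52, 1.54 and 3.17 FPKM in MPS, again in the same order of replicates in both sections.

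Both transcription factors among the named members were highest in TPS replicate 1, unlike the enzymes above. BntWG10007271, a basic helix-loop-helix protein named bHLH146 in Arabidopsis, was at 11.1, 4.54 and 8.13 FPKM in TPS and was listed in MPS replicate 2 alone, at 0.03 FPKM. BntWG10011437 matches nuclear factor Y subunit B-11, a protein that delays flowering of rice in long days. It was at 10.78, 2.2 and 4.74 FPKM in TPS and at 0.12, 0.26 and 0.27 FPKM in MPS. Its TPS mean of 5.91 ± 4.41 FPKM (SD, n = 3 libraries) was the lowest of the named members.

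A membrane transporter and an enzyme of the cell wall closed the roles. BntWG10002488 belongs to the family of WALLS ARE THIN 1, a vacuolar auxin transporter that Arabidopsis fibers need for thick secondary walls. It was at 29.15, 15.8 and 29.18 FPKM in TPS and at 3.85, 0.45 and 1.17 FPKM in MPS. BntWG10011370 was named as a probable beta-1,3-galactosyltransferase, of a family that builds the galactan chains of arabinogalactan proteins. It was at 6.35, 13.5 and 10.33 FPKM in TPS and at 1.26, 1.03 and 0.6 FPKM in MPS. In both genes MPS replicate 1 was the highest MPS library, while MPS replicate 3 was the highest in 11 of the 20 named members.

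The remaining 5 named members fell in none of these roles. A pair matched DRT100 of Arabidopsis, a protein with leucine-rich repeats found through its effect on tolerance of DNA damage in bacteria. BntWG10005724 was at 38.12, 71.74 and 90.21 FPKM in TPS and at 0.08, 0.11 and 0.02 FPKM in MPS. BntWG10004690 was at 10.8, 44.83 and 52.16 FPKM in TPS and was listed in MPS replicate 2 alone, at 0.12 FPKM. The lowest TPS value was 346.5 times the highest MPS value for the first and 90 times for the second, and no other gene in the copy had this name.

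The probable carbohydrate esterase BntWG10005900 had the most even values of the named members within TPS, with 61.11, 68.73 and 87.65 FPKM. It was also the one of highest level in the lowest MPS library, with 8.2, 9.19 and 5.64 FPKM in MPS. Hydroxypyruvate reductase HPR3 reduces hydroxypyruvate and glyoxylate in the leaves of Arabidopsis. BntWG10001020 was at 6.37, 24.54 and 21.11 FPKM in TPS and at 0.09, 0.11 and 0.71 FPKM in MPS. Phosphoethanolamine N-methyltransferase 3 makes the choline head group of membrane lipids. BntWG10004895 was at 5.2, 9.84 and 11.75 FPKM in TPS and at 0.08, 0.22 and 0.19 FPKM in MPS.

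Genes that share a name with a member did not all share its direction. Of the 4 genes named polyphenol oxidase, BntWG10007828 was at 0.65, 5.48 and 8.04 FPKM in TPS and at 0, 0 and 0.02 FPKM in MPS. Its TPS mean of 4.72 FPKM was just under the limit of 5 FPKM. BntWG10007826 was at 0.02, 0 and 0.07 FPKM in TPS and at 1.29, 18.09 and 4.9 FPKM in MPS, so that every MPS library was above every TPS library. The IDs of these genes and of the member BntWG10007827 are consecutive. In edgeR's quasi-likelihood test across annotated genes, the log2 fold change of MPS over TPS was -9.0 ± 1.56 for BntWG10007828 and 7.96 ± 1.49 for BntWG10007826 (approximate standard error), and neither passed (Benjamini-Hochberg adjusted p = 0.0712 and 0.0773). The last of the 4, BntWG10000775, was at 0.19, 0.32 and 1.03 FPKM in TPS and at 1.35, 3.46 and 1.41 FPKM in MPS (log2 fold change 2.0 ± 0.79, edgeR adjusted p = 0.302).

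Of the 4 genes named endochitinase 3, all had means that were higher in TPS. BntWG10010263 was at 2.14, 6.26 and 6.42 FPKM in TPS and at 0, 0.1 and 0.02 FPKM in MPS. Excluded IDs aside, its TPS mean of 4.94 FPKM was the closest below the limit of 5 FPKM among genes that met the fold limit (log2 fold change -6.89 ± 1.17, edgeR adjusted p = 0.068). BntWG10010255 was at 0.56, 0.55 and 0.6 FPKM in TPS and at 0.02, 0.34 and 0.02 FPKM in MPS (log2 fold change -2.13 ± 1.11, edgeR adjusted p = 0.45). The last gene named mandelonitrile lyase 1, BntWG10011751, was at 0.12 FPKM or less in every library.

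Cytosolic sulfotransferase 15 was the name of 12 genes, of which BntWG10010309 was the only member. BntWG10003869 was at 11.88 FPKM in TPS replicate 1, at 0.5 and 0.94 FPKM in TPS replicates 2 and 3, and at 2.13, 0.14 and 0 FPKM in MPS. BntWG10009571, at 1.74, 1.1 and 3.51 FPKM in TPS, and BntWG10009567, at 0.79, 1.06 and 4.32 FPKM in TPS, were at 0 in all MPS libraries (edgeR adjusted p = 0.0633 and 0.0925). BntWG10003872 had its highest values in MPS, with 1.46 and 2.4 FPKM in replicates 1 and 2. BntWG10000755 and BntWG10009573 had the same value in each library. RSEM, which made the counts, divides reads that match several near-identical transcripts among them, so that levels within these families of like sequence are uncertain.

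**Figure D4:**
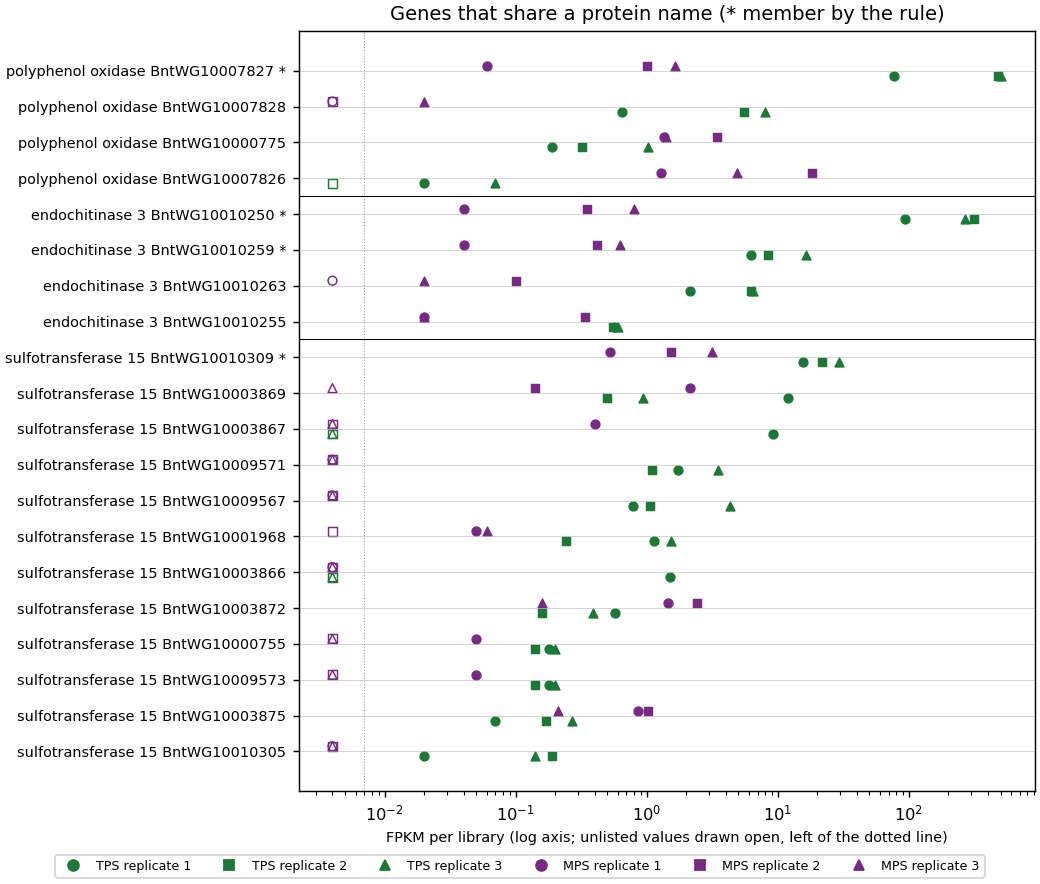
FPKM per library, on a log axis, of all listed genes named polyphenol oxidase (4), endochitinase 3 (4) and sulfotransferase 15 (12), with TPS in green, MPS in purple, symbols for the replicates, open symbols for unlisted values and an asterisk at each member. Polyphenol oxidase BntWG10007826 lies at 1.29 to 18.09 FPKM in MPS and at 0.07 FPKM or less in TPS, opposite to the member BntWG10007827.

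The lists of like function were drawn by name from the copy described above. The study chose those genes on these samples, so that the lists are not independent evidence of a direction. A gene counted as called at an adjusted p under 0.05, over all 13585 annotated genes that passed the filter on low counts, and a log2 fold change of at least 1 in either direction. In this fit 0.559% of the genes tested were called lower in MPS (76 genes) and 0.243% were called higher (33 genes). Of the members, 89 passed the filter and 37 were called lower. Their median log2 fold change was -4.83, and that of all genes tested was 0.02. Since the rule used this contrast, nothing is read from these member values. With the replicate number as a block, 52 genes were called lower and 20 higher, and 26 members were among those called lower. The block also leaves fewer degrees of freedom, and the data did not settle its pairing of replicates 2 and 3. Leaving out TPS replicate 1 gave 33 lower and 7 higher, and leaving out TPS replicate 2 gave 1 lower and 0 higher. Without any one of TPS replicate 3 and MPS replicates 1, 2 and 3, edgeR called 0 genes, with 1504 to 2515 genes at an unadjusted p under 0.05. DESeq2 called 694 genes lower and 388 higher in all 6 libraries, and limma 259 and 114.

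Among 449 listed genes of the 13 role lists that were not members, 192 were tested, of which 11 were called lower in MPS and 11 higher. The members taken out of these lists were all lower in MPS by the rule. The balance of lower and higher calls in each list is thus shaped by that choice, and nothing is read from it. With the replicate block 8 were called lower and 5 higher, and only 2 of the 11 in each direction were among them. Of the 11 called lower, 6 were on the list of excluded IDs, which leaves 5. All of these 6 but BntWG10008444 met both limits of the rule, so that their calls repeat the contrast of the rule. In the defence list, 34 genes were not members and 15 were tested. Here edgeR called 0 lower in MPS (5 at an unadjusted p under 0.05, 5 called by DESeq2 and 1 by limma) and 1 higher. The gene called higher was BntWG10005743, a chitin-binding lectin, at 4.48, 2.27 and 2.42 FPKM in TPS and at 48.86, 50.27 and 15.18 FPKM in MPS (log2 fold change 3.65 ± 0.52, edgeR adjusted p = 0.0499). With DESeq2, 4 were higher. With the replicate block 1 gene was called lower and 0 higher. BntWG10005743 was then not called, though its log2 fold change was a similar 3.53 ± 0.38 (edgeR adjusted p = 0.0655). With a term for replicate 1 against the others, 3 were lower and 3 higher. The most abundant defence gene outside the members was BntWG10007995, a protein like the major latex protein of poppy. It was at 263.86, 1794.22 and 1383.78 FPKM in TPS and at 51.53, 122.71 and 400.81 FPKM in MPS, and the sections overlapped.

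Other genes of surface lipids included some whose levels overlapped between the sections. Of 23 non-members in that list, 11 were tested and edgeR called 0 in either direction (4 lower and 3 higher at an unadjusted p under 0.05, 4 lower and 3 higher by DESeq2, and 1 lower by limma). With the replicate block 1 was called higher. The lipid-transfer protein BntWG10009546 was at 165.31, 476.48 and 429.3 FPKM in TPS and at 6.87, 19.61 and 263.78 FPKM in MPS. BntWG10009540, with an ID next to that of the member BntWG10009541, was at 12.58, 19.68 and 36.75 FPKM in TPS and at 0, 0 and 6.04 FPKM in MPS. MPS replicate 3 was the highest MPS library for each of these 3 lipid-transfer proteins. For the sulfotransferase list, 7 of 13 non-members were tested and edgeR called 0 (3 lower at an unadjusted p under 0.05, 3 lower by DESeq2, and 1 lower by limma).

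In the list of specialised metabolism, 37 of 73 non-members were tested, of which 3 were called lower in MPS and 5 higher (2 and 3 with the replicate block). The 3 called lower were all excluded IDs that met both limits of the rule. In the list of cell wall genes, 41 of 65 non-members were tested, with 6 called lower and 2 higher (4 and 1 with the block). In the list of transcription factors, 24 of 61 were tested, with 0 lower (9 at an unadjusted p under 0.05, 8 called by DESeq2 and 5 by limma) and 1 higher, which with the block became 1 lower and 0 higher. In that of transporters, 18 of 45 were tested, with 0 lower (10 at an unadjusted p under 0.05, 9 called by DESeq2 and 2 by limma) and 2 higher, both lost with the block, which called 0 in either direction. Of 3 lipoxygenase and jasmonate genes tested, lipoxygenase BntWG10010197 was called lower, at 0.7, 0.61 and 0.56 FPKM in TPS and at 0 in all MPS libraries (edgeR adjusted p = 0.0418). That call was lost with the replicate block (edgeR adjusted p = 0.139). The log2 fold change was -9.26 in both fits, but with MPS at 0 its size depends on how zeros are handled. With limma, where 0.5 FPKM is added to every value, it was -1.17.

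Of the 72 members without a protein name, 14 had a TPS mean of 100 FPKM or more, against 4 of the 20 with a name. These shares are alike, so that a high level did not set the members without a name apart. BntWG10029985 was at 2552.28, 3046.36 and 3909.99 FPKM in TPS and at 5.04, 180.3 and 327.24 FPKM in MPS. Its neighbour by ID, BntWG10029984, was at 666.09, 762.36 and 1453.25 FPKM in TPS and at 0.74, 2.17 and 8.49 FPKM in MPS. Both genes are short, with coding lengths of 411 and 417 bp, and both stood in the same order of replicates in both sections. Without BntWG10029985, the other 91 members had a summed level of 6672 ± 2340 FPKM in TPS, against 186.0 ± 71.6 FPKM in MPS (SD over n = 3 libraries each).

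The 6 members at 0 in all MPS libraries are of different kinds. BntWG10011633, BntWG10012495 and BntWG10025298 were above 0 in every TPS library. BntWG10025298 was at 10.1, 7.73 and 13.2 FPKM in TPS, which is at least 155.7-fold higher in library-scaled counts than a floor of 3 counts per MPS library. For BntWG10011633 and BntWG10012495 the level was at least 34.7-fold and at least 22.6-fold higher than that floor. The other 3 were also at 0 in part of TPS, and met the fold limit only because a lowest TPS value of 0 is not below 4 times a highest MPS value of 0. BntWG10014059 and BntWG10025080 were listed in TPS replicate 1 alone, at 27.38 and 18.57 FPKM. BntWG10023048 was at 0, 2.63 and 12.4 FPKM in TPS, and its mean of 5.01 FPKM was the lowest of the members. These 3 were the members that did not pass the filter on low counts. The floor covers counting error only, because the reads carry no molecular identifiers and several can stem from 1 molecule.

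Membership near the fold limit rested on small differences. Just inside the limit, BntWG10021160 had 6.87 FPKM in its lowest TPS and 1.71 FPKM in its highest MPS library, and BntWG10028106 had 8.86 and 2.19 FPKM. Just outside, BntWG10017383 had 6.43 and 1.66 FPKM, and BntWG10030138 had 5.82 and 1.51 FPKM. The number of genes by the rule also depended on single libraries. Without TPS replicate 1 it was 146, without MPS replicate 1 it was 142, and without MPS replicate 3 it was 145. These included 87, 92 and 92 of the 92 members. With a library left out, the lowest TPS value cannot fall and the highest MPS value cannot rise. Members can then be lost only through the TPS mean, and without an MPS library all 92 stay by construction. With both replicate 1 libraries left out, a setting chosen after seeing the data, 184 genes met the rule, 87 of them members.

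Within each section, the members stood in another order of libraries than most other genes. Over the 89 members above 0 in every TPS library, the highest TPS library was a median of 2.26 times the lowest. The median was 1.48 over the 5773 other annotated genes with a TPS mean of at least 5 FPKM that were above 0 in every TPS library. The ratio was under 2 in 36 members and at least 5 in 7. It was largest, at 32.3, for BntWG10028033, a member without a name at 10.99, 131.99 and 354.56 FPKM in TPS and 0, 0.07 and 0.19 FPKM in MPS.

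TPS replicate 1 was the lowest TPS library in 58 of these 89 members (65.2%), and in 25.4% of the other genes. TPS replicate 3 was the highest in 44 members (49.4%), against 27.4% of the other genes. In MPS, 77 members had 3 different values, of which 44 (57.1%) were lowest in replicate 1 and 49 (63.6%) were highest in replicate 3. Among other genes these shares were 40.0% and 22.1%. The ratio of MPS replicate 3 to MPS replicate 1 had a median of 2.38 over 71 members and of 0.951 over 5767 other genes. Genes are not independent replicates, and the rule used all 6 libraries, so that these shares are a description of the libraries. The median MPS mean of the members was 0.63 FPKM, so that few reads set the MPS order of some of them.

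Genes just below the fold limit were like the members in which library was lowest, and less so in which was highest. They were picked by the same values at a looser limit, so that they are no independent check. For 110 genes with a TPS mean of at least 5 FPKM whose lowest TPS value was 2 to under 4 times the highest MPS value, TPS replicate 1 was the lowest TPS library in 58.2%. MPS replicate 1 was the lowest MPS library in 57.4% of 108 such genes. MPS replicate 3 was the highest in 42.6%, between the shares of the members and of the other genes. TPS replicates 2 and 3 were each the highest TPS library in 38.2%. The ratio of MPS replicate 3 to MPS replicate 1 had a median of 1.27.

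**Figure D5:**
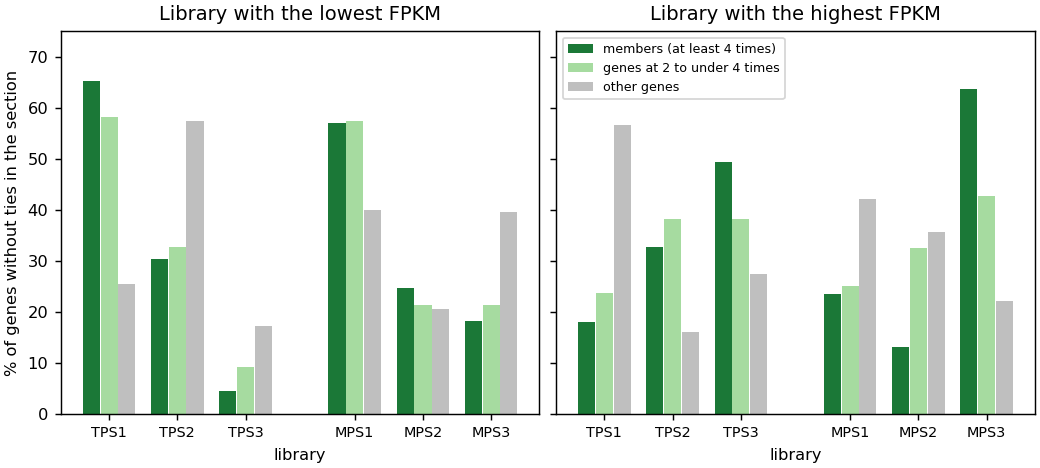
Share of genes, in % of those without ties, for which each library was the lowest (left) or the highest (right) of its section, with 3 bars per library for members, for genes at 2 to under 4 times, and for other annotated genes with a TPS mean of at least 5 FPKM. TPS1 to TPS3 and MPS1 to MPS3 are the replicates of the sections. Members were lowest in TPS replicate 1 in 65.2% and highest in MPS replicate 3 in 63.6%, against 25.4% and 22.1% of other genes.

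Markers of the section label and of other cells also varied between replicates. The cellulose synthase gene BntWG10024039, which the study relates to a secondary wall cellulose synthase of Arabidopsis, was at 51.06, 14.93 and 12.15 FPKM in TPS and at 42.7, 190.13 and 215.15 FPKM in MPS. Thus TPS replicate 1 was above MPS replicate 1, and the sections overlapped. It made up nearly all of the summed level of the 4 secondary wall genes taken as markers, which was 12.8 to 51.3 FPKM in TPS and 47.4 to 216.7 FPKM in MPS. The others are a MYB gene, BntWG10013420, at 0.23 to 0.58 FPKM in TPS and 1.46 to 3.08 FPKM in MPS, and 2 laccase genes. Of the laccases, BntWG10014338 was at 0 in all TPS libraries and at 0.03, 0.16 and 0.01 FPKM in MPS, so that it was hardly detected in either section. BntWG10014339 was at 0.01, 0.06 and 0.05 FPKM in TPS and at 1.87, 0.6 and 0.07 FPKM in MPS. The study names further secondary wall genes, of which 1 is given here, and it lay in the other direction. Levels of the rest are not given here. BntWG10008444, a relative of the xylan gene IRX15-LIKE of Arabidopsis and on the list of excluded IDs, was at 29.8, 28.2 and 35.91 FPKM in TPS and at 7.43, 4.87 and 7.59 FPKM in MPS. Its log2 fold change was -2.24 ± 0.25 (edgeR adjusted p = 0.0359), and -2.26 ± 0.21 with the replicate block (edgeR adjusted p = 0.0562). The 26 genes of the chloroplast list, taken as a marker of green tissue, summed to 10.2 to 13.3 FPKM in TPS and to 40.2, 399.4 and 19.1 FPKM in MPS. A single gene, BntWG10003397 for the photosystem II protein D1, gave 352.85 FPKM of the sum in MPS replicate 2, against 5.33 and 4.24 FPKM in MPS replicates 1 and 3. BntWG10001178 and BntWG10001197, both named Ycf4, were each at 15.69 FPKM in MPS replicate 1 and at 0 in every other library. The sums in MPS replicates 1 and 2 thus rested mostly on few genes, and say little of green tissue. Of the 4 chloroplast genes tested, 2 had negative and 2 positive log2 fold changes, with 0 called by edgeR (2 at an unadjusted p under 0.05, 1 called by DESeq2 and 0 by limma). The 20 genes of the cell cycle and DNA list, a marker of dividing cells, summed to 129.1 to 271.0 FPKM in TPS and 28.4 to 44.8 FPKM in MPS. Here 10 of 10 tested had negative log2 fold changes, with 0 called by edgeR (7 at an unadjusted p under 0.05, 7 called by DESeq2 and 1 by limma). This list too was drawn from the study's differing genes, and 132 of the 192 tested non-members of all role lists had negative log2 fold changes. Of the YABBY genes, which mark leaves and other lateral organs, only the 2 named in the copy could be found. These summed to 0.3 to 2.56 FPKM in TPS and to 0.29 FPKM or less in MPS. The part of these cells in the values of the members was not tested.

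The members were somewhat shorter than other genes. All lengths given for annotated genes are multiples of 3, so that they were taken as coding lengths. The median was 1022 bp over members, with a range of 273 to 2934 bp, and 1173 bp over 5834 other genes with a TPS mean of at least 5 FPKM. In total, 18 members (19.6%) had coding lengths under 500 bp, against 11.8% of the other genes. The shorter members had a median TPS mean of 29.3 FPKM, and those of 500 bp or more had 17.3 FPKM.

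Some members lay close to each other in ID number. For 8 members (8.7%) another member was within 2 ID numbers, against 1.22% of the other genes with a TPS mean of at least 5 FPKM. Within 15 ID numbers the shares were 21.7% (20 members) and 8.59%. Such pairs included both lectins, both endochitinases, BntWG10029984 with BntWG10029985, and BntWG10029494 with BntWG10029495. BntWG10029494 was at 75.23, 99.19 and 213.16 FPKM in TPS and BntWG10029495 at 10.87, 12.13 and 28.03 FPKM, so that both had their highest TPS value in replicate 3. Positions in the genome were not used here, and whether ID numbers follow the order of genes in the genome was not tested.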

How the data were processed

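The 6 transcriptome libraries were grouped by the section in their labels. The authors aligned clean reads to the ramie genome with Bowtie2 and obtained expected counts per transcript with RSEM. The deposited FPKM values were estimated by the authors from them, per transcript length and depth. Transcripts were assembled by the authors with HISAT and StringTie, with versions not given in the sources used here. Small RNA and circRNA files were not used.

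The rule was applied to FPKM as deposited, with unlisted values as 0. Expected counts, rounded to whole numbers, were compared with edgeR 4.0.16 (TMM, filterByExpr, quasi-likelihood test) in R 4.3.3, with annotated genes, assembled transcripts and lncRNAs in one fit and Benjamini-Hochberg adjustment over annotated genes. The study used DEGseq, which does not use the spread between replicates. DESeq2 1.42.0 and limma 3.58.1 on log2(FPKM + 0.5) were alternatives. Standard errors were approximated by dividing each absolute log2 fold change by the square root of its F statistic. Tables and plots were made with Python 3.11.15, pandas 2.3.3 and matplotlib 3.10.9. The common dispersion was 0.366.

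The replicate block took the numbers to pair the libraries. Deviations of same-numbered libraries from the section means had correlations over genes of 0.492, 0.199 and 0.230 for replicates 1, 2 and 3. Deviations from a section mean sum to 0, so that a match of replicate 1 alone also raises the correlations among replicates 2 and 3. These values thus bear on replicate 1 against the others, and do not decide how replicates 2 and 3 pair. TPS replicate 2 with MPS replicate 3 (0.240) and TPS replicate 3 with MPS replicate 2 (0.146) correlated to a similar degree.

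Members and lists were chosen with earlier results of these data known. Names came from a copy of the study's table of differing genes that holds 964 genes, of which 773 with a Swiss-Prot name are listed in the libraries. Its fold changes and p-values were not used. Named members were described by role, up to 6 per role and up to 10 outside the roles, in order of TPS mean. Of members without a name, the 2 of highest TPS mean, those at the limits, those at 0 and the pairs by ID were named, the last 2 kinds after their values were seen, as were BntWG10012316, BntWG10028033 and the genes outside the members.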

Additional observations from a re-analysis of the deposited data

How the results depend on the processing

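The number of members was 92. It was 125 with a fold limit of 3 and 54 with 8, 196 with a TPS mean of at least 1 FPKM and 67 with at least 10, 87 after rescaling by TMM factors (82 of them members) and 68 with 0.5 FPKM added before the fold limit. Leaving out single libraries gave 93 to 146, and leaving out both replicate 1 libraries, chosen after seeing the data, gave 184. With libraries left out, the fold limit can only become easier to meet. After rescaling, also chosen after seeing the data, TPS replicate 1 was the lowest TPS library in 63 members and MPS replicate 1 the lowest MPS library in 46. Annotated genes called lower and higher in MPS were 76 and 33 in edgeR's test. They were 694 and 388 with DESeq2, 259 and 114 with limma, 14 and 4 without the filter on low counts, and 272 and 118 with a term that parts replicate 1 from replicates 2 and 3. The replicate block gave 52 and 20, of which 26 and 9 were also called without it. Leaving out single libraries gave 0 to 33 lower and 0 to 7 higher. Of the role-list genes left after taking out the members, all of which are lower in MPS, 11 were called lower and 11 higher. They were 88 and 38 with DESeq2, 37 and 16 with limma, 2 and 2 without the filter, 33 and 18 with the replicate 1 term, and 8 and 5 with the replicate block. Leaving out single libraries gave 0 to 2 lower and 0 to 1 higher, and removing the 17 excluded IDs, chosen after seeing the data, gave 5 lower and 11 higher. The median log2 fold change of the members was -4.83, -3.79 with limma, where 0.5 FPKM is added to every value, -5.05 with the replicate block, and -5.49 to -4.72 without single libraries. The cause of the differences in calls was not tested. Depth limits the ratios of members near 0 in MPS, where single reads decide the value.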
